A study of Mus musculus with 17 samples.

Results

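The dual-specificity MAP kinase phosphatases were followed as a family of 10 genes, Dusp1, Dusp2, Dusp4, Dusp5, Dusp6, Dusp7, Dusp8, Dusp10, Dusp14 and Dusp16, chosen by name with earlier results of these data known. The shares of members called are therefore descriptive. All 10 were among the 31091 genes of the count table, and all 10 passed the filter on low counts in each fit. MAP kinases are switched on by phosphorylation of a threonine and a tyrosine in their activation loop, and these phosphatases remove both phosphates and thereby end the signal. Several of the phosphatase genes are themselves transcribed in response to MAP kinase signaling, so that they act in negative feedback loops. In dendritic cells, the ERK, p38 and JNK pathways take part in the response to danger signals and in cytokine production.

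The cells were splenic cDCs of female C57BL/6JRj mice that were bought at 8 weeks of age and then given a B16-FLT3L tumor. This melanoma line releases the growth factor FLT3L, which expands dendritic cells in vivo. Spleens of several mice were pooled, and cells bearing CD11c were cultured for 6 h with medium of TC-1 cells, a mouse lung epithelial tumor line, in the presence of GM-CSF. The medium came from WT TC-1 cells without inducible constructs, from the clonal subline TC-1-iBimS that dies by apoptosis when cumate induces BimS, or from the clonal subline TC-1-iRIPK3 that dies by necroptosis when cumate induces RIPK3, and cumate was given to all of them. The medium was not centrifuged, so it carried the dead cells and debris. Each kind of death came with its own subline and construct, so these cannot be told apart from the kind of death. The paper also reported more efficient uptake of apoptotic than of necroptotic debris, and the part of uptake was not tested here. Both cDC types were exposed together and then sorted into cDC1s (XCR1+ CD8α+) and cDC2s (SIRPα+ CD11b+), which gave 3 libraries in each of 5 groups and 2 libraries of cDC2s with RIPK3 medium. These are bulk libraries, in which fewer cells with a transcript and less transcript per cell cannot be told apart. The labels do not say which replicates came from separate animals or cultures, and p-values measure the spread between these libraries, which may in part be technical.

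Each library held between 16095159 and 21645289 reads counted on genes. The sorted cells carried their defining markers: the 10 cDC1 markers summed to between 2861 and 3580 CPM (counts per 1000000 counts of a library, normalised between libraries) in cDC1 libraries and between 401 and 706 CPM in cDC2 libraries, where Cd36 made up most of the sum. That sum was above its WT range in each library with debris, at 3286 to 3580 CPM in cDC1s and 572 to 706 CPM in cDC2s, but the markers did not move together: in cDC1s 4 of 10 rose and 3 fell with either debris. With WT, BimS and RIPK3 medium in turn, Cd36 was at 1321, 1849 and 2017 CPM and Irf8 at 309, 184 and 176 CPM. In cDC2s 1 of the 10 rose with either debris. The 10 cDC2 markers summed to between 3.29 and 5.38 CPM in cDC1 libraries and, in cDC2 libraries, to between 342 and 393 CPM with WT, 325 and 357 CPM with BimS and 298 and 334 CPM with RIPK3 medium. In cDC2s 4 of these 10 markers fell and 1 rose with RIPK3, the comparison in which 5 members rose, and the part of either marker list in the changes of the members was not tested. Of 14 markers of adherent tumor cells 13 were in the table, and their sum was 6.41 to 7.55 CPM in cDC1s with WT medium against 5.60 to 6.73 CPM with debris, and 35.0 to 44.6 CPM in cDC2s with WT medium against 22.9 to 39.7 CPM with debris. In cDC2s most of it was Cdh1, with means of 32.7 CPM (WT medium) and 20.4 CPM (RIPK3 medium), and the median log2 fold change of the 8 tumor cell markers tested there was 0.26 with RIPK3. Markers of neutrophils, B cells, and T and NK cells stayed at or below 5.18 CPM in sum in each library. Macrophage markers summed to between 58.9 and 89.3 CPM, with Cd68 the most abundant, followed by Lyz2 in cDC1s and by Fcgr1 and Mrc1 in cDC2s. Of these markers 3 of 11 fell with BimS and 1 of 11 with RIPK3 in cDC1s, and 2 of 12 fell with RIPK3 in cDC2s, and their part in the changes of the members was not tested. Fcgr1 in cDC1s was at 5.00, 2.43 and 1.15 CPM with WT, BimS and RIPK3 medium. Plasmacytoid dendritic cell markers summed to between 175 and 219 CPM in cDC2s, mainly Tcf4.

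The sequences before the start sites are shown for the members in which a searched motif was found. The part of these motifs in the changes of members with debris was not tested. In GRCm39, the 300 bases before the canonical start of each of the 10 genes were searched on both strands. The motifs were the cAMP response element TGACGTCA, a broad AP-1 pattern that takes any middle base (TGANTCA) and the ETS core CCGGAAG. Added to these were the CArG box that serum response factor recognises and the NF-kB site. Dusp5 held 2 adjoining CArG boxes, from 38 to 19 bases before the start, against 1.69% of 21770 promoters of protein-coding genes with at least 1 such box. Dusp1 held the cAMP response element once, from 96 to 89 bases before its start, and Dusp8 held it in 2 places, from 76 to 69 and from 32 to 25 bases before its start, against 1.75% of promoters with at least 1. None of these 5 motifs was found in the window of Dusp2, Dusp4, Dusp6, Dusp7, Dusp10, Dusp14 or Dusp16, while AP-1 letters were present in 7.38%, ETS letters in 7.36% and NF-kB letters in 8.83% of all promoters. G and C made up 66.3%, 71% and 67% of the windows of Dusp5, Dusp1 and Dusp8, against a median of 52.3% over all promoters. The shares of promoters with a motif were not matched for this. The windows lie at chr19:53517232-53517531 on the plus strand for Dusp5, at chr17:26727494-26727793 on the minus strand for Dusp1 and at chr7:141649053-141649352 on the minus strand for Dusp8. They are printed 5′ to 3′ with the motif letters in capitals, the CArG boxes of Dusp5 forming one run.
Dusp5: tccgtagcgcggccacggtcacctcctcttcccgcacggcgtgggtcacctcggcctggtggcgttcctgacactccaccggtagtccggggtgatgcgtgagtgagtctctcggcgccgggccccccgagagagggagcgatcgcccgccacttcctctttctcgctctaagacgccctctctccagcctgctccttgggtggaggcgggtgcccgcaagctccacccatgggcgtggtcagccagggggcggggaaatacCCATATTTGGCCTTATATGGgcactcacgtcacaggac
Dusp1: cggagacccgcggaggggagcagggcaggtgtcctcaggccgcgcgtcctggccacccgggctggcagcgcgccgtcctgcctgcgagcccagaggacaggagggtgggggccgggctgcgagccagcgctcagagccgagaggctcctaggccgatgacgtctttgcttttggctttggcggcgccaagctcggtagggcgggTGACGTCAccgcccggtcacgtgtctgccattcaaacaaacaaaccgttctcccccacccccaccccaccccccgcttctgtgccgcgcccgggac
Dusp8: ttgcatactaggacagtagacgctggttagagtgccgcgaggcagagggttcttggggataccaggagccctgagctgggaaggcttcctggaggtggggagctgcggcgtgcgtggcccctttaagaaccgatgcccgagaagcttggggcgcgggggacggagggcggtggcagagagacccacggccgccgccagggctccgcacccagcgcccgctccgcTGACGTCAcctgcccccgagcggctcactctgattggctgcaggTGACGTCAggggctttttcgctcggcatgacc

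Dusp5 was by far the most abundant transcript of the family in both cell types. To compare genes, CPM was divided by the length of the canonical transcript in kb. With WT medium, cDC1s held Dusp5 at 311 ± 10.0 CPM per kb (SD, n = 3), followed by Dusp4 at 73.9 ± 4.17, Dusp1 at 51.2 ± 2.96, Dusp2 at 34.1 ± 2.24 and Dusp16 at 10.4 ± 0.284 CPM per kb. Neighbours in this order did not overlap between libraries down to Dusp16. Dusp6 at 1.36 ± 0.128 and Dusp10 at 1.06 ± 0.240 CPM per kb overlapped each other, and Dusp7, Dusp8 and Dusp14, at 0.169, 0.146 and 0.0831 CPM per kb, each overlapped the next. In cDC2s with WT medium the order was Dusp5 at 280 ± 22.5, Dusp1 at 65.6 ± 3.07 and Dusp16 at 36.6 ± 3.82 CPM per kb, then Dusp2 at 13.1 ± 1.16 and Dusp4 at 11.6 ± 2.51 CPM per kb, which overlapped. Below these lay Dusp6 at 2.09 ± 0.114, Dusp14 at 0.744 ± 0.0859, Dusp10 at 0.475 ± 0.0846, Dusp8 at 0.306 ± 0.0495 and Dusp7 at 0.0991 ± 0.0563 CPM per kb, with no overlap between neighbours.

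In shares of the family total, Dusp5 made up 64.4% ± 0.697 (SD, n = 3) of the summed CPM per kb in cDC1s with WT medium, and 68.1% ± 3.13 in cDC2s. Dusp4 made up 15.3% ± 0.331 of the total in cDC1s and 2.83% ± 0.704 in cDC2s, whereas Dusp16 made up 2.15% ± 0.0518 in cDC1s and 8.96% ± 1.22 in cDC2s. The family total was 484 ± 18.8 CPM per kb in cDC1s with WT medium, 586 ± 29.7 with BimS medium and 622 ± 19.4 with RIPK3 medium. In cDC2s it was 410 ± 14.0, 529 ± 17.9 and 582 ± 26.3 CPM per kb (n = 2 for the last). Totals with WT medium lay below those with either debris in each library of both cell types. These totals follow Dusp5, which supplied most of them.

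**Figure D1:**
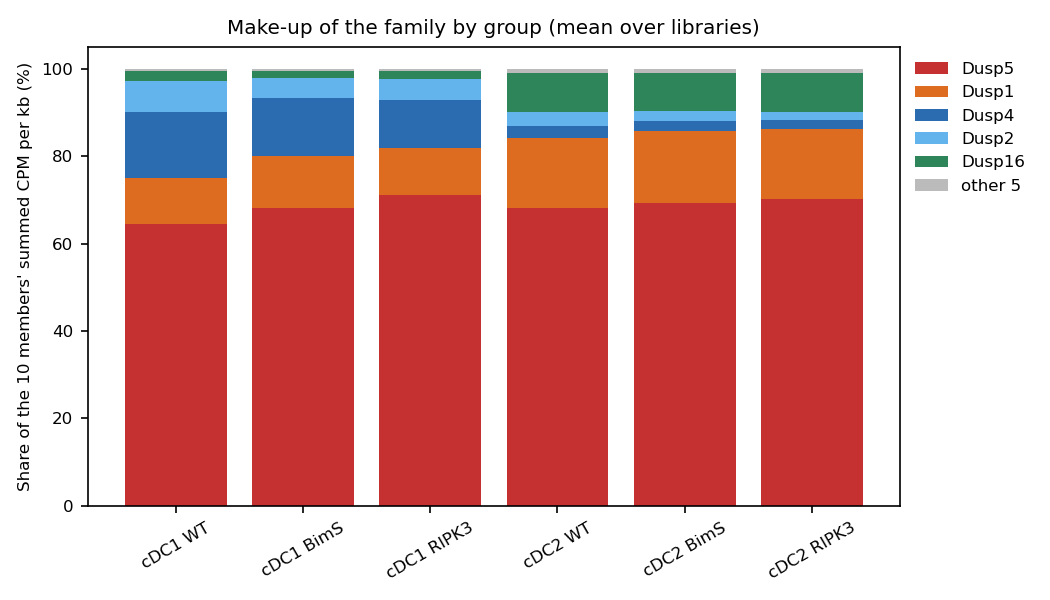
Share of each member in the summed CPM per kb of the 10 genes (%), as the mean over the libraries of each group, with the 5 members of low level drawn together. Dusp5 made up between 64.4% and 71.2% in the 6 groups, Dusp4 was larger in cDC1s, and Dusp16 and Dusp1 were larger in cDC2s.

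Between cDC1s and cDC2s that had received WT medium, 8 of the 10 members differed, 3 with higher and 5 with lower levels in cDC1s. Of 19082 genes tested in this comparison, 46.2% were called at an adjusted p under 0.05 by edgeR, and all adjusted p-values of single genes below are from that test. The median log2 difference of the members was -0.10, against 0.009 over all genes. Dusp4, a nuclear phosphatase that is itself induced by ERK signaling, showed the widest gap among the abundant members. Its level in cDC1s with WT medium was 204, 214 and 191 CPM, and in cDC2s 38.3, 32.5 and 24.6 CPM. Every cDC1 library was far above every cDC2 library, and the log2 fold change was 2.68 (SE 0.138, adjusted p = 5.06e-11). Dusp2, a nuclear phosphatase found mainly in blood cells, was at 59.9, 62.9 and 55.2 CPM in cDC1s and at 20.6, 24.6 and 23.3 CPM in cDC2s. The 2 sets of libraries did not overlap, and the log2 fold change was 1.38 (SE 0.0935, adjusted p = 3.17e-13). Dusp10, which prefers p38 and JNK, was low in both but higher in cDC1s, at 3.74 ± 0.843 CPM against 1.67 ± 0.297 CPM (SD, n = 3 each, log2 fold change 1.16, adjusted p = 0.000146). Reads of an overlapping antisense gene, given below, leave this difference uncertain.

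Dusp16, a JNK and p38 phosphatase that shuttles between cytoplasm and nucleus, was the abundant member with the opposite distribution. It was at 55.7, 54.3 and 52.8 CPM in cDC1s with WT medium and at 208, 196 and 169 CPM in cDC2s. All cDC2 libraries were higher, and the log2 fold change was -1.82 (SE 0.0761, adjusted p = 4.67e-18). Dusp1, the broad nuclear phosphatase of p38, JNK and ERK that limits inflammatory cytokines, was lower in cDC1s by a smaller margin, at 102 ± 5.89 CPM against 130 ± 6.11 CPM (log2 fold change -0.36, adjusted p = 0.000247, lost with limma on unnormalised log2 counts at 0.162). Among the low members, Dusp14, a small phosphatase that lacks the kinase-binding domain of the classical members, had the largest log2 fold change at -3.11 (SE 0.358, adjusted p = 1.95e-08). It was read only 2, 6 and 8 times in the cDC1 libraries with WT medium, against 39, 44 and 43 times in cDC2s. Dusp6, the cytoplasmic ERK phosphatase, and Dusp8, a JNK and p38 phosphatase, were lower in cDC1s by -0.63 (SE 0.175, adjusted p = 0.0039) and -1.06 (SE 0.322, adjusted p = 0.00777) on the log2 scale. The call of Dusp6 was lost with limma (-0.46, adjusted p = 0.0781), and that of Dusp8 when replicate 2 of cDC1s with WT medium was left out (adjusted p = 0.0551). Dusp5, the nuclear phosphatase specific for ERK, had a mean of 773 ± 24.8 CPM over the cDC1 libraries and 694 ± 55.8 CPM over the cDC2 libraries and did not pass (log2 fold change 0.16, SE 0.0667, adjusted p = 0.0582), although 5 of the alternatives that kept all libraries and did not use pairing called it, DESeq2 among them (adjusted p = 0.0349), as did the fit without replicate 3 of cDC2s with WT medium (log2 fold change 0.22, adjusted p = 0.00397). Dusp7, a cytoplasmic ERK phosphatase read at most 16 times in a library, was not called either (adjusted p = 0.176).

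**Figure D2:**
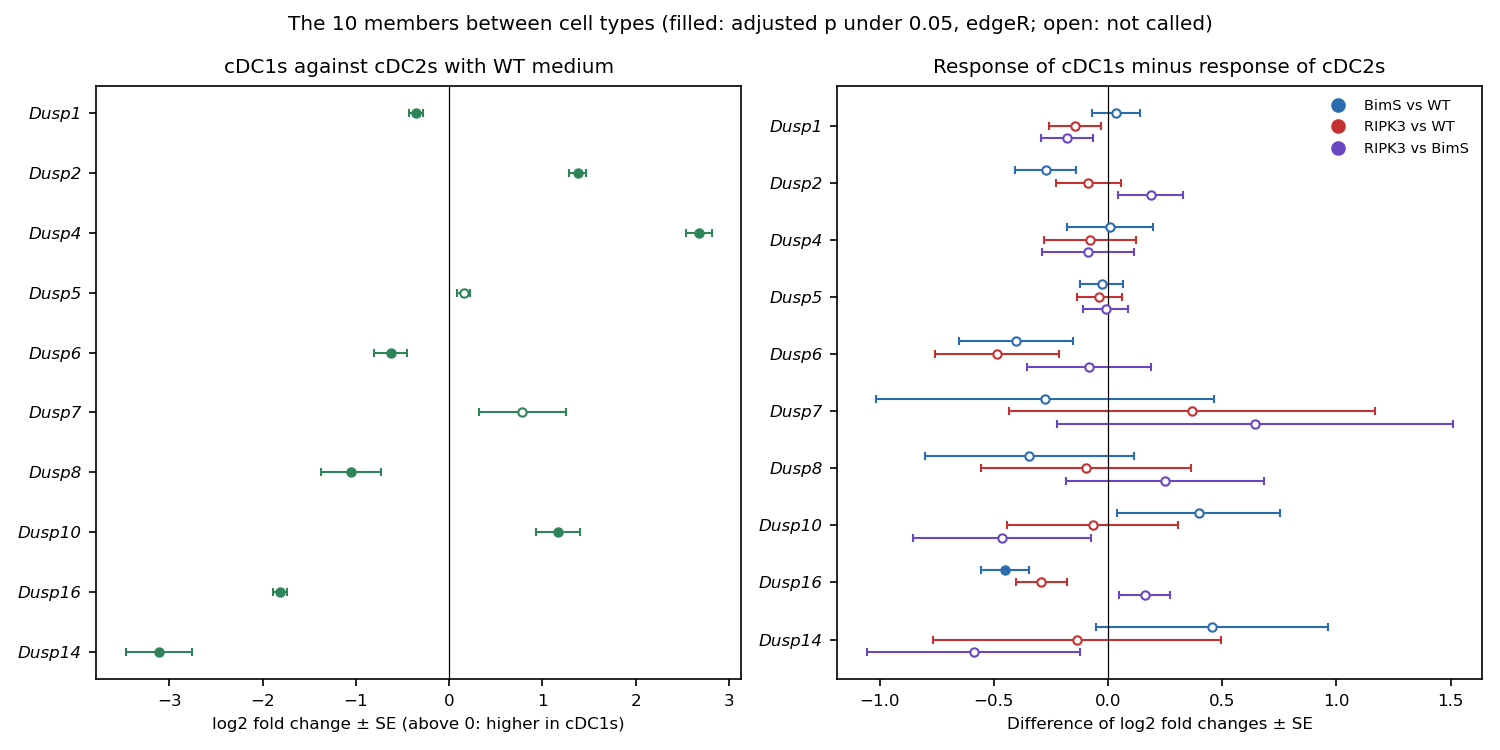
Left, log2 fold change ± SE of each member between cDC1s and cDC2s with WT medium, with values above 0 higher in cDC1s. Right, the response of cDC1s minus the response of cDC2s for each pair of media as a difference of log2 fold changes ± SE, where filled points passed an adjusted p of 0.05 and only Dusp16 for BimS against WT did so.

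The comparison of BimS with WT medium asked what changed with medium that carried apoptotic debris. In cDC1s, Dusp1 and Dusp5 rose and Dusp2 fell, so 3 of 10 members were called, where 13.2% of all 19513 genes were. The members' median log2 fold change was at 0.00, against 0.002 over all genes. In cDC2s, Dusp1, Dusp5, Dusp16 and Dusp14 rose and no member fell, so 4 of 10 members were called, where 7.01% of 19239 genes were. Without 1 library, 2 to 3 members were called in cDC2s, with 2 called without replicate 2 of WT or replicate 2 of BimS. Their median was 0.29, against -0.019 over all genes.

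The comparison of RIPK3 with WT medium asked the same of necroptotic debris. In cDC1s, Dusp5, Dusp1 and Dusp16 rose and Dusp2 fell, 4 of 10 members against 16.5% of all genes. In cDC2s, Dusp14, Dusp8, Dusp5, Dusp1 and Dusp16 rose and none fell, 5 of 10 against 7.21% of all genes. Without 1 library, 1 to 5 members were called there, and without replicate 1 of RIPK3 the 1 called was Dusp5. The members' median log2 fold change was 0.09 in cDC1s and 0.29 in cDC2s, against -0.006 and -0.022 over all genes. The comparisons with BimS and RIPK3 medium share their WT libraries, so they are not independent of each other. With the replicate number as a block, which removes what libraries of one number share, the numbers of members called were again 3, 4, 4 and 5, while the share of all genes called was 17.9% for BimS and 21.0% for RIPK3 in cDC1s, and 21.3% and 21.4% in cDC2s. With limma on log2 counts without normalisation between libraries, no member was called in cDC2s with BimS and 1, Dusp14, with RIPK3.

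Among the nuclear phosphatases, Dusp5 rose with both kinds of debris in both cell types. In cDC1s it was at 789, 785 and 744 CPM with WT medium, at 1067, 938 and 974 CPM with BimS medium, and at 1133, 1080 and 1081 CPM with RIPK3 medium. No library with debris reached down to the WT libraries, and the RIPK3 libraries were all above the BimS libraries. Its log2 fold change in cDC1s was 0.36 with BimS (SE 0.0477, adjusted p = 3.63e-07) and 0.51 with RIPK3 (SE 0.0478, adjusted p = 1.68e-10). In cDC2s Dusp5 was at 643, 686 and 753 CPM with WT medium, at 864, 880 and 981 CPM with BimS medium, and at 1039 and 985 CPM with RIPK3 medium. The order of the media was the same and again without overlap between groups. Its log2 fold change in cDC2s was 0.39 with BimS (SE 0.0802, adjusted p = 0.00385) and 0.54 with RIPK3 (SE 0.0887, adjusted p = 0.000423). These 4 calls of Dusp5 by edgeR held with each of the libraries left out in turn.

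Dusp1 also rose with both kinds of debris in both cell types. In cDC1s it was at 102, 108 and 95.8 CPM with WT medium, at 151, 134 and 131 CPM with BimS medium, and at 140, 132 and 122 CPM with RIPK3 medium. Both debris groups were above the WT libraries and overlapped each other. The log2 fold change was 0.45 with BimS (SE 0.0592, adjusted p = 6.27e-07) and 0.37 with RIPK3 (SE 0.0594, adjusted p = 1.22e-05). The RIPK3 call was lost with limma on unnormalised log2 counts (0.25, adjusted p = 0.0931). In cDC2s Dusp1 was at 137, 129 and 125 CPM with WT medium, at 188, 168 and 165 CPM with BimS medium, and at 202 and 172 CPM with RIPK3 medium. Here too the debris groups did not overlap the WT libraries but overlapped each other. The log2 fold change was 0.41 with BimS (SE 0.0861, adjusted p = 0.00435) and 0.51 with RIPK3 (SE 0.0953, adjusted p = 0.00144), and the latter was lost without replicate 1 of cDC2s with RIPK3 medium (adjusted p = 0.0934). Replicate 1 held the highest Dusp1 level of each group with debris.

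Dusp2 was the member that fell, in cDC1s. Beside its WT levels given above, it was at 53.1, 44.3 and 42.4 CPM with BimS medium and at 52.7, 52.9 and 46.5 CPM with RIPK3 medium. All libraries with debris were below the lowest WT library. It fell by 0.35 on the log2 scale with BimS (SE 0.0745, adjusted p = 0.00146), in each of 6 fits that left out 1 library as well. With RIPK3 its log2 fold change was -0.23 (SE 0.0744, adjusted p = 0.0371), a call lost with DESeq2 (adjusted p = 0.0562) and 3 other fits of all libraries (adjusted p up to 0.104), without replicate 1 or 2 of WT, or without replicate 3 of RIPK3 (adjusted p = 0.109, 0.161 and 0.103). In cDC2s, Dusp2 was not called with BimS (log2 fold change -0.08, adjusted p = 0.789) or with RIPK3 (-0.15, adjusted p = 0.591). Its level there was 22.8 ± 2.02 CPM with WT medium and 20.7 CPM with RIPK3 medium. Dusp4 was not called with debris in either cell type, at 191 to 212 CPM as group means in cDC1s and at 31.6 to 33.0 CPM in cDC2s, with log2 fold changes against WT between -0.09 and 0.06. Without replicate 2 of cDC1s with RIPK3 medium, the library with the highest Dusp4 level of that group, its log2 fold change against WT was -0.19 (adjusted p = 0.0399).

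**Figure D3:**
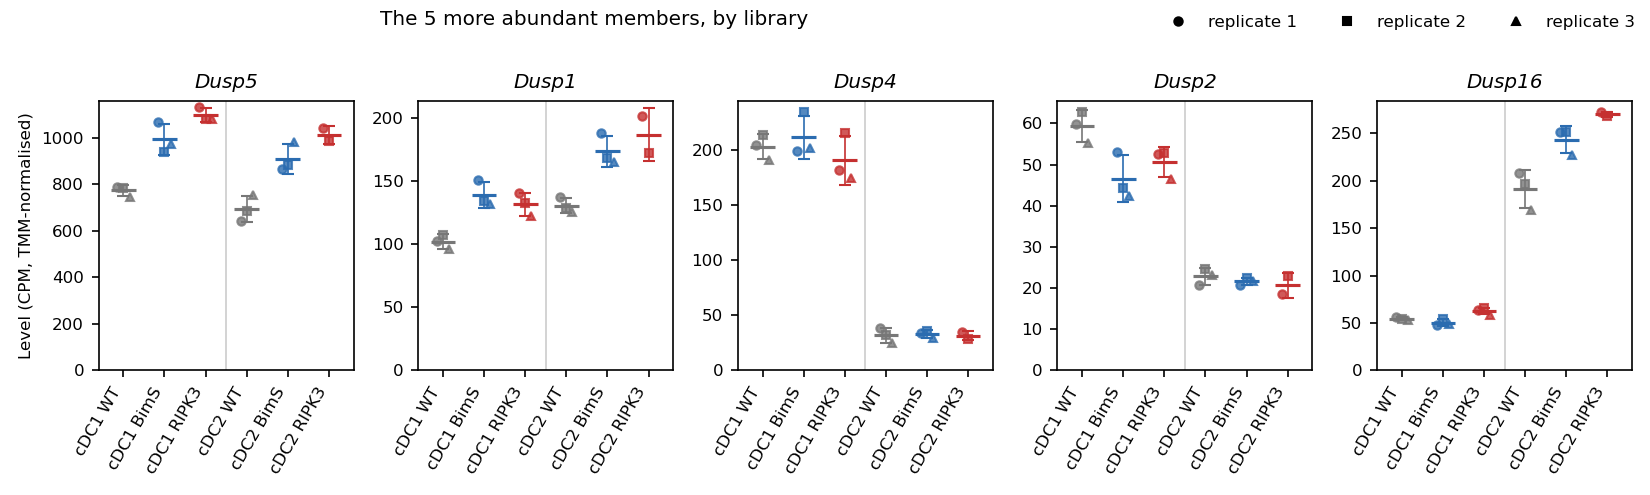
Levels (CPM) of the 5 more abundant members in each library, with a symbol per replicate number, the mean as a line and the SD as bars (n = 3, and 2 for cDC2s with RIPK3 medium). Dusp5 and Dusp1 were higher with either debris than with WT medium in both cell types, Dusp2 was lower with debris in cDC1s, and Dusp16 was higher with debris in cDC2s.

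Of the JNK and p38 phosphatases, Dusp16 rose with RIPK3 medium in both cell types and was called with BimS medium in cDC2s only. By the edgeR interaction test, its response differed between the cell types for BimS (adjusted p = 0.0291) but not for RIPK3 (adjusted p = 0.343). The BimS interaction held in 6 of 12 fits without 1 library and was lost with limma (adjusted p = 0.613). In cDC1s Dusp16 was at 48.2, 54.6 and 48.5 CPM with BimS medium and at 64.1, 65.3 and 58.5 CPM with RIPK3 medium. The RIPK3 libraries were above all WT libraries, whereas BimS and WT libraries overlapped. It rose by 0.21 on the log2 scale with RIPK3 (SE 0.0618, adjusted p = 0.0155) and was not called with BimS (log2 fold change -0.10, SE 0.0624, adjusted p = 0.346). The call with RIPK3 was lost without replicate 3 of WT (adjusted p = 0.0844) or replicate 2 of RIPK3 (adjusted p = 0.102), with all 17 libraries in a single fit (adjusted p = 0.0783), and with limma (log2 fold change 0.09, adjusted p = 0.697). In cDC2s Dusp16 was at 252, 251 and 227 CPM with BimS medium and at 272 and 268 CPM with RIPK3 medium. Both groups lay above the WT libraries, and RIPK3 above BimS. It rose by 0.34 on the log2 scale with BimS (SE 0.0872, adjusted p = 0.0177) and by 0.49 with RIPK3 (SE 0.0966, adjusted p = 0.00232). The BimS call was lost without replicate 2 of WT or replicate 1 or 2 of BimS (adjusted p = 0.0649, 0.0904 and 0.104), and the RIPK3 call without either RIPK3 library (adjusted p = 0.0548 and 0.0538).

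Dusp8 and Dusp10 were low in all groups. Dusp8 was at 1.49, 1.72 and 1.24 CPM in cDC2s with WT medium, at 1.83, 2.09 and 1.85 CPM with BimS medium, and at 2.46 and 3.28 CPM with RIPK3 medium. The 3 groups did not overlap, and the rise with RIPK3 passed the test (log2 fold change 0.95, SE 0.259, adjusted p = 0.0281). That call rested on 23 to 56 reads in a library, and it was lost with DESeq2 (adjusted p = 0.0513) and in 4 of 5 fits without 1 library, namely without replicate 1 or 3 of WT or without either RIPK3 library. In cDC1s the log2 fold change of Dusp8 with RIPK3 was 0.86 (SE 0.346, adjusted p = 0.0898), with 9 to 35 reads in a library, and it was called without replicate 3 of RIPK3 (adjusted p = 0.0495). Dusp10 had no call with debris, with log2 fold changes between -0.43 and 0.03 in the 4 comparisons with WT.

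With edgeR on all libraries of a cell type, the ERK phosphatases of the cytoplasm showed no call with debris. Dusp6 had log2 fold changes with RIPK3 of -0.39 in cDC1s (SE 0.2, adjusted p = 0.212) and 0.09 in cDC2s (SE 0.164, adjusted p = 0.871). Limma on unnormalised log2 counts called Dusp6 in cDC1s with RIPK3 (-0.57, adjusted p = 0.042). Its level in cDC1s with RIPK3 medium was 2.23, 4.17 and 2.30 CPM, and without replicate 2, the highest library, the log2 fold change was -0.76 (adjusted p = 0.009). Dusp7 was read between 2 and 16 times in a library, and its log2 fold changes against WT ranged from -0.81 to -0.43 with SEs from 0.42 to 0.698.

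Dusp14 had the largest fitted change with RIPK3 medium in both cell types, though only that in cDC2s passed. In cDC2s it was at 2.00, 2.52 and 2.32 CPM with WT medium, at 2.92, 3.86 and 4.24 CPM with BimS medium, and at 5.56 and 4.57 CPM with RIPK3 medium. The media were in the same order as for Dusp5, with no overlap between groups. It rose by 0.69 on the log2 scale with BimS (SE 0.203, adjusted p = 0.0451) and by 1.14 with RIPK3 (SE 0.218, adjusted p = 0.0017). The BimS call was lost with DESeq2 (adjusted p = 0.0606) and in 5 of 6 fits without 1 library, and held only without replicate 1 of BimS. The RIPK3 call was lost without replicate 1 of RIPK3 (adjusted p = 0.0595). In cDC1s its log2 fold change was 1.15 with BimS (SE 0.501, adjusted p = 0.147) and 1.02 with RIPK3 (SE 0.515, adjusted p = 0.204), on 2 to 16 reads in a library. Over all 17 libraries, genes with log2 CPM most like that of Dusp14 included Tuba1c (Pearson r = 0.979), Hpf1 (0.973), Ptafr (0.969) and Nasp (0.969), among 7784 genes of sufficient level. The 17 libraries include the gap of Dusp14 between the cell types, and its part in these correlations was not tested.

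**Figure D4:**
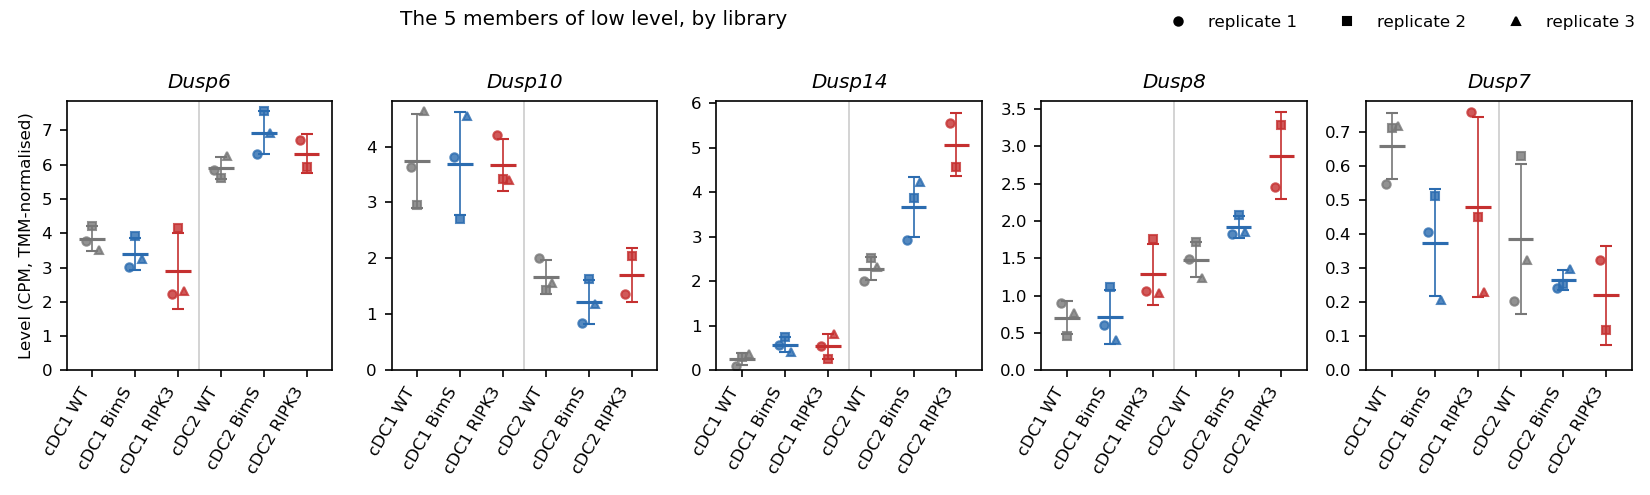
Levels (CPM) of the 5 members of low level in each library, with a symbol per replicate number, the mean as a line and the SD as bars (n = 3, and 2 for cDC2s with RIPK3 medium). Dusp14 and Dusp8 were higher with RIPK3 than with WT medium in cDC2s, whereas the groups of Dusp6, Dusp10 and Dusp7 overlapped in most comparisons of media.

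The direct comparison of RIPK3 with BimS medium set necroptotic against apoptotic debris, each from its own subline. In cDC1s, 1 of 10 members was called, against 4.15% of all genes: Dusp16, which was higher with RIPK3 by 0.31 on the log2 scale (SE 0.0622, adjusted p = 0.00153). All 3 RIPK3 libraries were above all 3 BimS libraries, and the call held in each of 6 fits without 1 library but was lost with limma on log2 counts (0.23, adjusted p = 0.346). Dusp5 was 0.14 higher on the log2 scale (SE 0.0476, adjusted p = 0.0832) and was called when the replicate number was a block (0.15, adjusted p = 0.00277), when no filter was used (adjusted p = 0.0372), and without replicate 1 of BimS or replicate 3 of RIPK3 (adjusted p = 0.013 and 0.0187). With the block so was Dusp4, at -0.15 on the log2 scale (adjusted p = 0.00913, against 0.455 without the block), which was also called without replicate 2 of RIPK3 (-0.25, adjusted p = 0.022). With the block, 3 of 10 members and 8.87% of all genes were called. The block in a fit of all 17 libraries called neither Dusp5 nor Dusp4 (adjusted p = 0.173 and 0.48). In cDC2s, no member passed edgeR without the block, where edgeR called 0.379% of all genes, nor DESeq2, although Dusp8 and Dusp14 had unadjusted p-values of 0.0349 and 0.0429. With the block, Dusp5 was called in cDC2s, 0.20 higher with RIPK3 on the log2 scale (adjusted p = 0.000111), as were 14.3% of all genes, but not with the block in the fit of all 17 libraries (0.17, adjusted p = 0.139). Dusp1 differed between RIPK3 and BimS by -0.07 on the log2 scale in cDC1s (SE 0.0588) and by 0.10 in cDC2s (SE 0.0957), and neither was called.

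**Figure D5:**
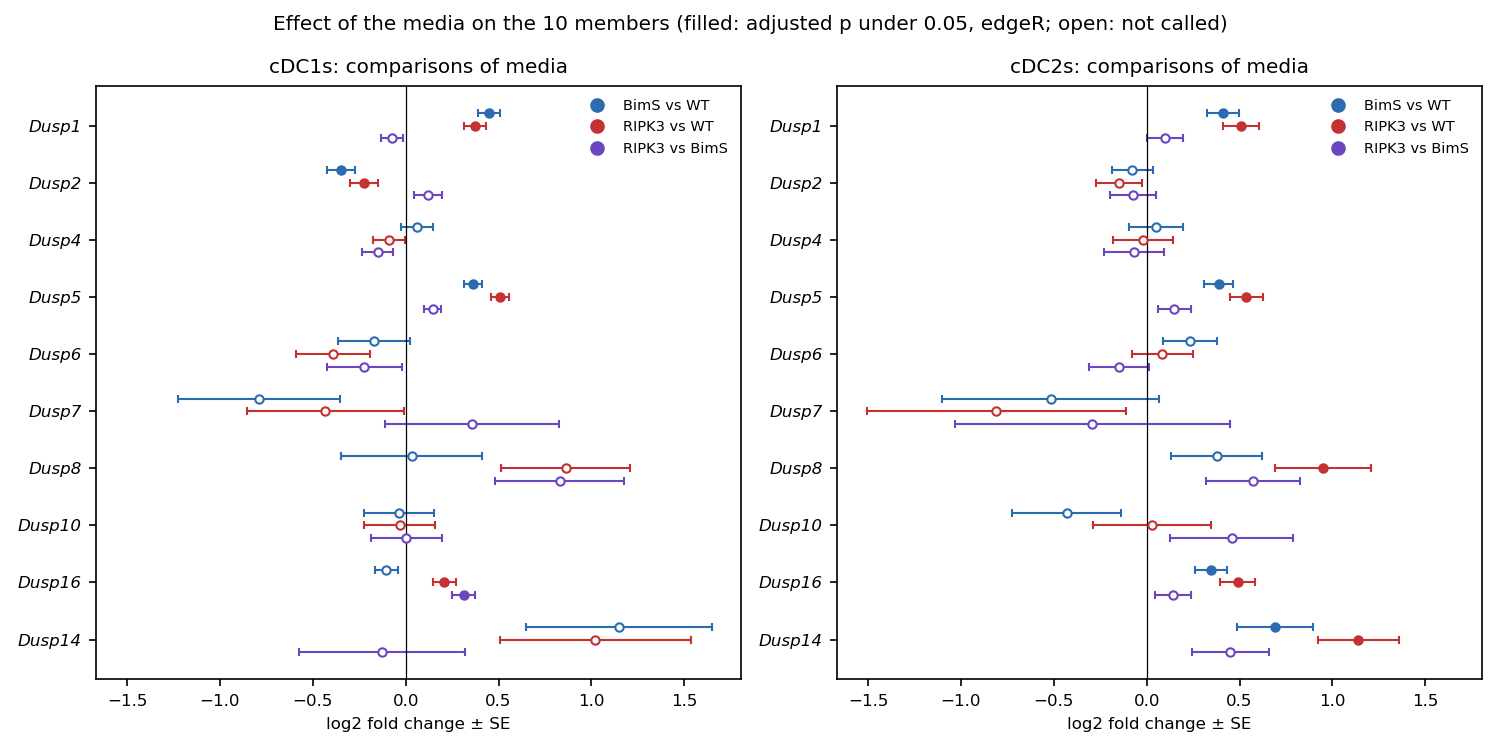
Log2 fold change ± SE of each member for the 3 pairs of media, in cDC1s (left) and cDC2s (right), where filled points passed an adjusted p of 0.05 without the replicate block. Dusp1 and Dusp5 are filled for both kinds of debris against WT in both cell types, and Dusp16 is the single filled point for RIPK3 against BimS.

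Whether the cell types differed in their response was tested as an interaction, the log2 fold change in cDC1s minus that in cDC2s. For BimS against WT, Dusp16 was the 1 member called, with a difference of -0.45 (SE 0.105, adjusted p = 0.0291), where 0.870% of all genes were called. Its log2 fold change was -0.10 in cDC1s and 0.34 in cDC2s. This call was lost in 6 of 12 fits without 1 library, namely replicate 1 or 2 of cDC1s with WT medium, 1 or 3 of cDC1s with BimS medium, and 1 or 2 of cDC2s with BimS medium, with adjusted p-values from 0.0725 to 0.115. For RIPK3 against WT edgeR called no member and 1.14% of all genes, DESeq2 called no member either, and Dusp16 was the 1 member with an unadjusted p under 0.05 (difference -0.29, SE 0.111, adjusted p = 0.343). For RIPK3 against BimS neither tool called a member, none had an unadjusted p under 0.05, and edgeR called 0.0314% of all genes. The responses of Dusp5 differed between the cell types by -0.03 for BimS (SE 0.0942) and -0.04 for RIPK3 (SE 0.0999). Those of Dusp1 differed by 0.04 (SE 0.107) and -0.14 (SE 0.113), and those of Dusp2 by -0.27 (SE 0.133, adjusted p = 0.587) and -0.09 (SE 0.143).

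The MAP kinase pathways around the family were read from lists of genes that were likewise chosen with earlier results of these data known. Their shares are to be set against the 16.5% of all genes called with RIPK3 in cDC1s and the 7.21% in cDC2s. Among MAP3 kinases the share called was 16.7% in both, and among atypical phosphatases it was 7.69% in cDC1s and 8.33% in cDC2s, while it was 56.0% and 46.2% among early response genes. In cDC1s it was 63.6% among kinases activated by MAP kinases, most of which fell, 40.0% among phosphatases of other families and 36.4% among MAP kinases. With BimS medium in cDC1s, 38.9% of MAP3 kinases were called, 4 up and 3 down, against 13.2% of all genes. Of early response genes, transcription factors and regulators induced by MAP kinases, 11 rose and 3 fell with RIPK3 medium among 25 tested in cDC1s, and 11 rose and 1 fell among 26 in cDC2s. With BimS medium, 11 rose and 4 fell in cDC1s, and 9 rose and 1 fell in cDC2s. These were 60% and 38.5% of those tested, against 13.2% and 7.01% of all genes. Among them was Fosl1, a partner of JUN in AP-1, with log2 fold changes for RIPK3 of 3.12 in cDC1s (SE 0.212, adjusted p = 3.99e-14) and 1.79 in cDC2s (SE 0.18, adjusted p = 1.17e-06). Phlda1 rose by 1.36 in cDC1s and 1.02 in cDC2s, and Atf3, a stress-induced transcription factor, by 1.16 and 0.48 on the log2 scale. Of 11 MAP kinases tested in cDC1s, 2 rose and 2 fell with RIPK3, and of 13 in cDC2s 1 rose and 1 fell. Mapk9, which encodes JNK2, rose by 0.68 in cDC1s and 0.33 in cDC2s, and Mapk14, which encodes p38α, fell by 0.77 in both on the log2 scale. Of 7 MAP kinase kinases 1 rose in each cell type, Map2k3, an activating kinase of p38 (log2 fold changes 0.43 and 0.42). Of 18 MAP3 kinases, 1 rose and 2 fell in cDC1s and 2 rose and 1 fell in cDC2s, and Map3k9 rose in both (0.77 and 1.05). Of 11 kinases activated by MAP kinases, 1 rose and 6 fell in cDC1s and 1 fell in cDC2s, Mapkapk3, a kinase downstream of p38 (-0.28 in cDC1s and -0.44 in cDC2s). Of 14 RAS-ERK feedback inhibitors, 1 rose (Errfi1, 0.50) and 2 fell (Spred3, -0.35, and Spred1, -0.24) in cDC1s, and none was called in cDC2s, where Errfi1 was at 0.45 (adjusted p = 0.135) and Spred3 at -0.41 (adjusted p = 0.0769). Of 10 phosphatases of other families that act on MAP kinases, 4 rose in cDC1s and 2 in cDC2s, none fell, and Ppp2ca was among them in both. The atypical dual-specificity phosphatases outside the family had 1 call in each cell type, Dusp22, at -0.72 on the log2 scale in cDC1s (adjusted p = 0.00313) and -1.05 in cDC2s (adjusted p = 2.70e-05). Dusp9, the classical member that was not included in the family here, was below 1 CPM in the mean of each group and was not called in any comparison.

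The genes of the family lie on 10 chromosomes of GRCm39. Dusp5 spans chr19:53517532-53530862, Dusp1 chr17:26724564-26781102, Dusp4 chr8:35274442-35287048, Dusp2 chr2:127177957-127180296, Dusp16 chr6:134692431-134784241, Dusp14 chr11:83938521-83960087, Dusp6 chr10:99086564-99103361, Dusp8 chr7:141633226-141649580, Dusp10 chr1:183745499-183807842 and Dusp7 chr9:106245143-106252923. Whether the counting used the strand is not given in the sources used here, so reads of an antisense gene could be assigned to a member. The genes that overlap Dusp5 and Dusp16 on the opposite strand and are in the table had at most 32 and 1 reads in a library, and Ergic1, which overlaps the annotated Dusp1 gene on the opposite strand, had 286 to 483. The gene 1700056E22Rik, opposite to Dusp10, had 1 to 32 reads in a library over both cell types. Dusp10 itself had 14 to 39 reads in cDC2s and 58 to 103 in cDC1s. The reads of 1700056E22Rik were not split by cell type, so the levels of Dusp10 and its difference between the cell types are uncertain.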

How the data were processed

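Polyadenylated RNA was sequenced in 17 libraries of sorted cDC1s and cDC2s. The authors trimmed reads with SeqPurge, aligned them to GRCm39 with STAR 2.7.10a (version per the submitters' processing notes), and obtained gene counts from Ensembl models with gensum. The deposited counts used here are raw. A deposited table of log-scaled values from the same counts was not used. Of 31239 lines, 148 had no gene identifier and were left out (at most 0.0366% of a library's counts). Symbols and coordinates came from GENCODE M39 for 30854 identifiers.

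Tests were run in R 4.3.3 with edgeR 4.0.16 (quasi-likelihood, robust, TMM) on genes detected in 50% or more of a fit's libraries. The 9 cDC1 and 8 cDC2 libraries were fitted separately, and all 17 for contrasts of cell types and interactions. Benjamini-Hochberg adjustment covered all genes tested, at a threshold of 0.05, and the script was tested on simulated data. The fitted biological variation (BCV) came to 5.55% for cDC1s, against 9.58% for cDC2s. CPM used TMM factors over all libraries. Intervals of counting error were not used, since reads carry no molecular identifiers.

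The members and gene lists were chosen with earlier results of these data known. Text names all members, up to 3 genes per pathway list called with RIPK3 medium, with the largest change and an average log2 CPM of at least 3, and the 5 genes most like the member with the largest change, of which 1 is not reported here. Log2 CPM used a prior count of 2.

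Libraries of 1 replicate number deviated together within a cell type: the correlation of residuals was over 0.1 in 9 of 9 pairs of cDC1s and 7 of 7 pairs of cDC2s, so the numbers pair libraries within a cell type. Across cell types this held for 19 of 24 pairs. Alternatives were DESeq2 1.42.0, RLE factors, filterByExpr, no filter, limma 3.58.1 on log2(count + 1) without normalization, the replicate block, a fit of all libraries and leaving out each library. The block in a fit of all 17 libraries was added after seeing the data.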

Additional observations from a re-analysis of the deposited data

Results flagged for a closer look

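The response to debris differed between cDC1s and cDC2s, by an interaction test in edgeR, for 1 member, and among early response genes for 7 of 25 with BimS (6 with a positive and 1 with a negative difference, where 0.870% of all genes were called) and 6 of 25 with RIPK3 medium (4 positive and 2 negative, where 1.14% were), of which Atf3 and Fosl1 are given as the ones named by the rule for named genes. For Dusp16 the difference of log2 fold changes (cDC1s minus cDC2s) was -0.45 for BimS against WT (SE 0.105, adjusted p = 0.0291), from -0.10 in cDC1s and 0.34 in cDC2s. It was called in 6 of 12 fits without 1 library and was lost with limma (adjusted p = 0.613), and the difference for RIPK3 against WT was not called (adjusted p = 0.343).

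For Atf3, a stress-induced transcription factor, the difference was 0.85 for BimS against WT (SE 0.130, adjusted p = 0.000308) and 0.67 for RIPK3 against WT (SE 0.136, adjusted p = 0.00732). Its level in cDC1s was 72.4 CPM with WT, 107 CPM with BimS and 161 CPM with RIPK3 medium, and in cDC2s 25.8, 21.2 and 36.2 CPM. For Fosl1 the difference was 1.47 for BimS against WT (SE 0.289, adjusted p = 0.00645) and 1.32 for RIPK3 against WT (SE 0.293, adjusted p = 0.017). Its level in cDC1s was 0.665, 4.50 and 5.78 CPM with WT, BimS and RIPK3 medium, and in cDC2s 3.87, 9.40 and 13.4 CPM, so the larger fold change in cDC1s went with the lower level. The groups held 2 or 3 libraries, too few for a test of outlying libraries.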

How the results depend on the processing

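Of 1457 values of members under an alternative, 1389 kept the call or the lack of one, 50 lost the call and 18 gained it. Most of these values belonged to members not called as reported, whereas all 50 losses fell on the fewer values of called ones. The sign turned in 88 of them, in none of which the member was called before or after. For RIPK3 against BimS in cDC1s, 1 member was called as reported, 2 without a filter, 0 with limma on log2 counts without normalization, 3 with the replicate block, and 1 to 2 without 1 library. For BimS against WT in cDC2s, 4 were called as reported, 0 with limma, and 2 to 3 without 1 library. For RIPK3 against WT in cDC2s, 5 were called as reported, 1 with limma (Dusp14), and 1 to 5 without 1 library. For RIPK3 against BimS in cDC2s, 0 were called as reported and 1 with the replicate block. For RIPK3 against WT in cDC1s, 4 were called as reported, 2 with all 17 libraries in a single fit (Dusp5 and Dusp1), a fit that also lost Dusp14 for BimS against WT in cDC2s (adjusted p = 0.0508), 3 with limma, which lost Dusp1 and Dusp16 and called Dusp6 (-0.57, adjusted p = 0.042), and 3 to 5 without 1 library. Between cDC1s and cDC2s, 8 were called as reported, 7 with limma, which lost Dusp1 (-0.20, adjusted p = 0.162) and Dusp6 (adjusted p = 0.0781) and called Dusp5, and 7 to 9 without 1 library. For the interaction with BimS, 1 was called as reported, 0 with limma, and 0 to 1 without 1 library. The cause of these differences was not tested. Beyond the calls named in the report, the replicate block changed 1 call of a member, Dusp5 between cDC1s and cDC2s (0.16, adjusted p = 0.0204), where 19 of 24 pairs with the same number deviated together. With the block in a fit of all 17 libraries, the 6 comparisons of media had the calls of members reported without a block. In the fits without 1 library of cDC2s with RIPK3 medium, the remaining library is assumed to vary like the other groups. Dusp7, Dusp8 and Dusp14 had at most 86 reads in a library.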

Other observations

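Over the 17 libraries, the genes with log2 CPM most like that of Dusp5 were Rab1a, a GTPase of transport from the endoplasmic reticulum (Pearson r = 0.973), Akr1a1 (0.962), Fndc4 (0.962) and the chemokine Cxcl3 (0.959). Those most like Dusp1 were the tropomyosin gene Tpm1 (r = 0.977) and the dynein subunit gene Dync1li1 (0.964). The same search was run for Dusp16, Dusp4 and Dusp2, with highest values of 0.996 (Kpna1), 0.998 (Adam19) and 0.986 (Birc3) across libraries that include the gap between the cell types. These 5 members were chosen for the search after their values had been seen, and the libraries share cell type and medium.

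Among the other genes around the family, Map2k3, an activating kinase of p38, rose with both kinds of debris in both cell types, from 139 to 193 CPM with BimS and 188 CPM with RIPK3 in cDC1s, and from 124 to 164 CPM and 167 CPM in cDC2s. Of the phosphatases of other families, Ppp2ca, a catalytic subunit of PP2A, rose with RIPK3 medium by 0.33 on the log2 scale in cDC1s (edgeR, adjusted p = 6.66e-07) and 0.39 in cDC2s (adjusted p = 0.00635).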
